A study of Mus musculus with 6 samples.

Results

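The genes described here encode 10 subunits of cardiac potassium channels: the inward rectifier pores Kcnj2, Kcnj12, Kcnj3 and Kcnj5, the ATP-sensitive channel pores Kcnj8 and Kcnj11 with their sulfonylurea receptor partners Abcc8 and Abcc9, and the delayed rectifier pores Kcnq1 and Kcnh2. They were chosen by name as 10 of the 54532 genes in the deposited expression table, and all 10 were matched by symbol. Heart ventricles were taken from mouse embryos at E12.5 and their RNA sequenced in 3 LSD1-CKO libraries, labelled as a conditional knockout of LSD1 (genotype LSD1-KO, gene Kdm1a), and 3 control libraries (genotype CTL). The labels give no strain, sex, Cre driver, floxed allele or treatment for either group, and do not say whether the samples came from separate embryos or from pools, so the p-values cover the spread among these libraries, part of which may be technical. LSD1 removes methyl groups from histones within the CoREST repressor complex, and the question here is how these channel transcripts differed in LSD1-CKO against control ventricles.

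Potassium channels carry the outward current that ends the cardiac action potential and holds the cell near its resting potential. Kcnj2 and Kcnj12 form the strong inward rectifiers that set the resting potential of ventricular muscle. Kcnj3 and Kcnj5 together form the G protein-gated channel (GIRK) that acetylcholine opens through muscarinic receptors, best known from the atria and the sinoatrial node. Kcnj8 or Kcnj11 joins with a sulfonylurea receptor, Abcc8 or Abcc9, into channels that ATP closes, and Kcnj8 with Abcc9 is the pair typical of vascular smooth muscle and pericytes. Kcnq1 and Kcnh2 carry the slow and the rapid delayed rectifier currents that repolarise the heart.

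Kcnj3, Kcnj5 and Kcnj8 were the members whose expression passed the test, so the sequences in front of these 3 genes are shown. Each is the 250 bases before the annotated start, 5′ to 3′ on the gene's strand, from RefSeq on GRCm38.p6: chr2:55435720-55435969 on the plus strand for Kcnj3, chr9:32344345-32344594 on the minus strand for Kcnj5 and chr6:142571615-142571864 on the minus strand for Kcnj8. Capitals mark matches on either strand to an E-box (CANNTG) or a GC box (GGGCGG).
Kcnj3: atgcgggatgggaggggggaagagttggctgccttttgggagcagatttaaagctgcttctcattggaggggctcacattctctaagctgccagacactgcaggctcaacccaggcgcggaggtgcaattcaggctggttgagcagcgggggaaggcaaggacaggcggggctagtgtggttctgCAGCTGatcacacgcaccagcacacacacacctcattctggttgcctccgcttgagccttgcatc
Kcnj5: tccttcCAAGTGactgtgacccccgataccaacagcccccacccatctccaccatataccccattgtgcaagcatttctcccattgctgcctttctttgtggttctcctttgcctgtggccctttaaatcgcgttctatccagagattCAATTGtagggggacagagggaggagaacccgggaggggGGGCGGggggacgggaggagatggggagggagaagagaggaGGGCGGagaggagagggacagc
Kcnj8: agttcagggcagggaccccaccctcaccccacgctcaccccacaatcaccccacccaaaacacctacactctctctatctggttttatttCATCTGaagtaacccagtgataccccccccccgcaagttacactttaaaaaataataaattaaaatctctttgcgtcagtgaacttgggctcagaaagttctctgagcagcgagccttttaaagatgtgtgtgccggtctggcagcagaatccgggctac
An E-box, the letters bound by basic helix-loop-helix factors, was present in all 3 sequences and in 66.0% of 27025 RefSeq promoters of this length. GC boxes were found only in front of Kcnj5 among the 3, at 2 positions, and in 32.9% of all promoters. Neither a GATA motif (GATAA, in 23.0% of all promoters) nor a TATA box (TATAAA, in 13.0%) was matched in these windows. The GC content was 58.4% for Kcnj3, 58% for Kcnj5 and 49.2% for Kcnj8, against a median of 52% over all promoters. These matches describe letters and were not tied to any binding data.

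Kdm1a, the targeted gene, had 10.7, 11.8 and 11.0 FPKM (fragments per unit of gene length and library size) in the LSD1-CKO libraries, against 29.99, 29.73 and 22.80 FPKM in the control libraries (adjusted p = 0.00274, limma). Cend1, named in the series title, had 29.6, 32.2 and 27.2 FPKM in the LSD1-CKO libraries, against 10.6, 9.50 and 7.41 FPKM in the control libraries (limma adjusted p = 0.00159). The depth, as whole reads recovered from the FPKM values, was 17898946 to 20076023 per library. LSD1-CKO replicate 3 had 12.1 FPKM of Xist and 0 FPKM of the 4 Y-linked genes looked at, whereas the other 5 libraries had reads of all 4. LSD1-CKO replicate 1 had reads of these Y-linked genes together with 1.11 FPKM of Xist (360 reads), against 0 to 4 reads of Xist in LSD1-CKO replicate 2 and the controls. By these genes the groups were not matched for sex, and the part of sex in the channel values was not tested. LSD1-CKO replicate 1 also stood apart in the Schwann precursor gene Sox10, at 5.24 FPKM, against at most 0.611 FPKM in the other 5 libraries. Control replicate 3 had 9.03% of its summed FPKM in mitochondrially encoded genes, against 4.64% to 7.10% in the others. The 8 cardiomyocyte markers, such as Actn2, Tnnt2 and Ryr2, were all above 0 in every library. They summed to 2913 to 3136 FPKM in LSD1-CKO and 2685 to 3369 FPKM in control libraries, the largest part being Myl3. Actn2, Myh6 and Myh7 were lowest in control replicate 3, at 178, 106 and 330 FPKM, against at least 260, 168 and 421 FPKM elsewhere. Nkx2-5 was lowest there too, while Tnnt2, Ttn, Ryr2 and Myl3 were not. In the fit with library weights control replicate 3 weighed least, at 0.4625 against 0.9863 to 1.414.

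All 10 potassium channel genes reached the minimum mean of 0.5 FPKM for testing. Kcnj3 and Kcnj5 rose and Kcnj8 fell, while the other 7 did not pass the test (limma on log2(FPKM + 1), Benjamini-Hochberg adjusted p under 0.05 over 14149 genes). Of all genes tested 2.37% were called, 1.91% higher and 0.466% lower in LSD1-CKO. The LSD1-CKO and control libraries did not overlap for 5 of the 10 members, as for 21.4% of all genes tested, and 7 of the 10 had an unadjusted p under 0.05, against 16.1% of all genes tested. The median log2 change of the 10 was -0.011, beside -0.015 for all genes tested, with 5 members above 0 and 5 below. The members were picked with earlier results of these data known, so their count is a description of these 10 genes.

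**Figure D1:**
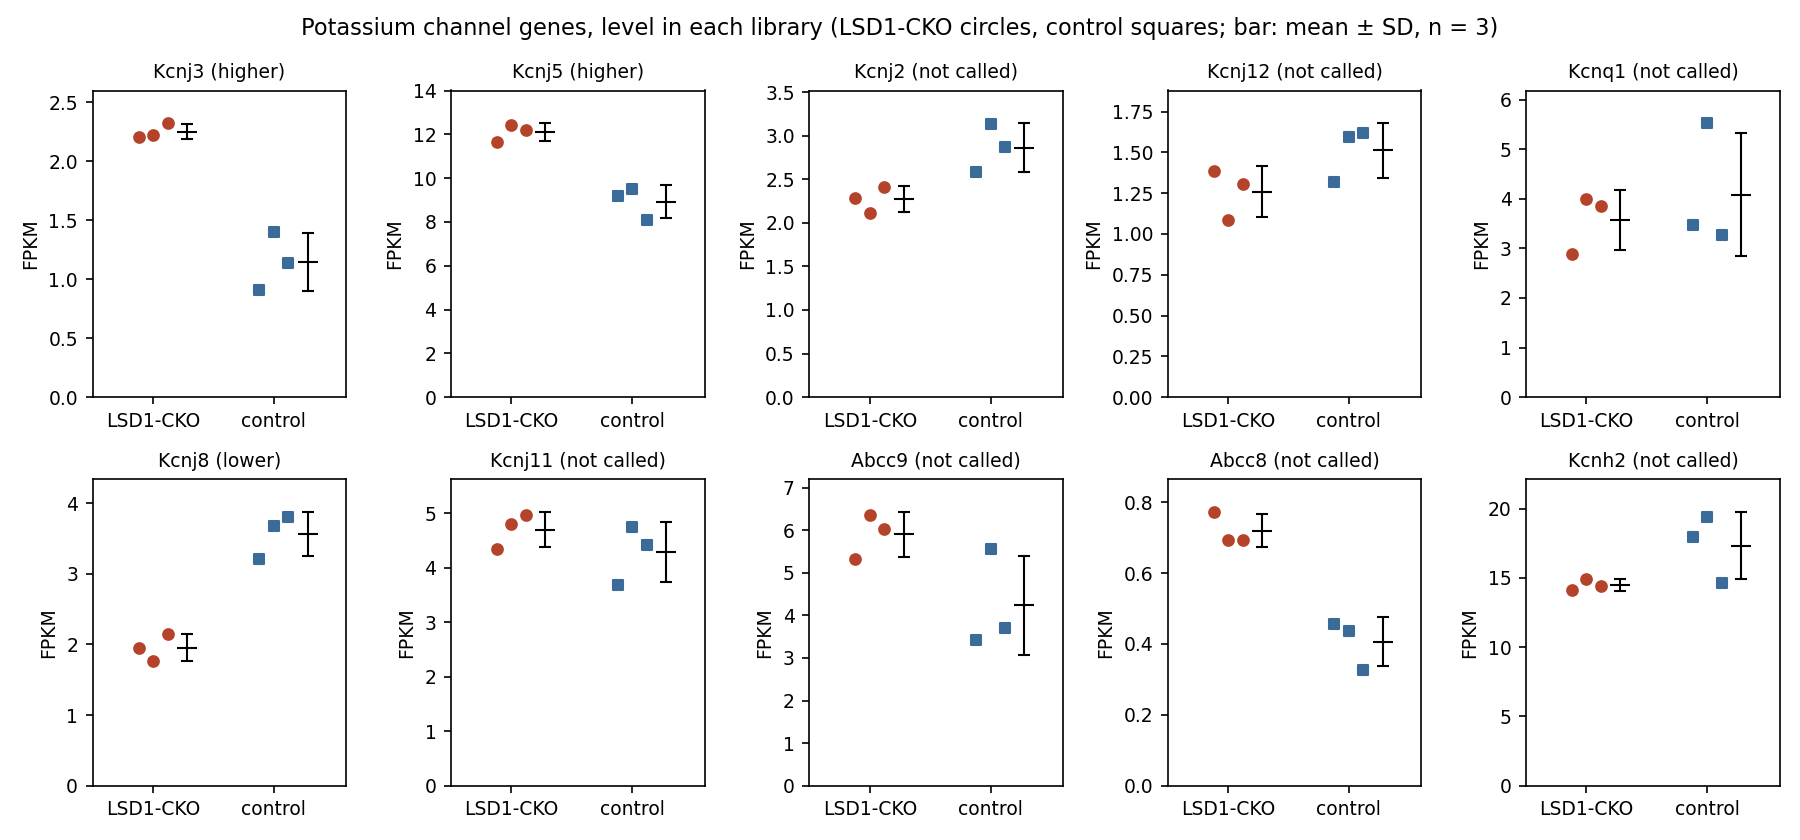
Level of each potassium channel gene in FPKM (vertical axes, each from 0) in the 3 LSD1-CKO libraries (circles, left) and the 3 control libraries (squares, right), with the mean ± SD beside them. The groups stand apart for Kcnj3, Kcnj5, Kcnj2, Kcnj8 and Abcc8, and overlap for the other 5 genes.

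The G protein-gated pair rose together. Kcnj3, which encodes the GIRK1 subunit, stood at 2.21, 2.22 and 2.32 FPKM in the LSD1-CKO libraries, against 0.904, 1.40 and 1.13 FPKM in the control libraries. Every LSD1-CKO library lay above every control library, and the LSD1-CKO libraries were closer to each other than the controls were. Mean expression was 2.25 ± 0.0606 FPKM in LSD1-CKO and 1.15 ± 0.249 FPKM in control ventricles (SD, n = 3 each), the first being 1.96 times the second (limma log2 change 0.61, SE 0.10, adjusted p = 0.0302). These values rest on 87 to 225 reads per library. The gene (ENSMUSG00000026824) lies on chromosome 2 from 55435970 to 55598145 on the plus strand of mm10. The antisense gene Gm26794 covers 31.1% of its exon bases, and the library kit does not mark strand, so reads of this stretch cannot be told apart. Gm26794 runs from 55433514 to 55437860, so the sequence shown in front of Kcnj3 also lies within this antisense gene. Gm26794 itself was listed at 0.0831 ± 0.0284 FPKM in LSD1-CKO and 0.0575 ± 0.0518 FPKM in control libraries (SD, n = 3 each).

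Kcnj5, which encodes the GIRK4 subunit, had 11.6, 12.4 and 12.2 FPKM in the LSD1-CKO libraries, against 9.19, 9.50 and 8.08 FPKM in the control libraries. The groups did not overlap. The means were 12.1 ± 0.404 FPKM in LSD1-CKO and 8.93 ± 0.746 FPKM in control ventricles (SD, n = 3 each), the first being 1.36 times the second (limma log2 change 0.40, SE 0.08, adjusted p = 0.0402). This gene (ENSMUSG00000032034; chromosome 9, 32314707 to 32344350, minus strand) had 731 to 1130 reads per library and no exon overlap with another gene. Kcnj5 was the more abundant of the pair in all 6 libraries. Kcnj3 amounted to 0.190, 0.179 and 0.190 of the Kcnj5 level in the LSD1-CKO libraries, and to 0.0983, 0.147 and 0.140 in the control libraries. The ratio was thus higher in each LSD1-CKO library than in each control library, by 0.55 on the log2 scale (exact permutation test, two-sided, p = 0.1, the smallest that 3 against 3 libraries allow; adjusted p = 0.2 over 6 ratios).

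Both calls depended on which libraries and genes were kept and on whether replicate numbers were fitted as a block. The Kcnj3 call was lost without LSD1-CKO replicate 1 (limma adjusted p = 0.0938), 2 (0.110) or 3 (0.111) and without control replicate 1 (0.0811) or 3 (0.0589), and it held without control replicate 2 (0.0364). The Kcnj5 call held only without control replicate 3 (0.0485) among the 6 fits that left out a library, in which its adjusted p was otherwise 0.0741 to 0.150. In all 6 of these fits both genes kept a log2 change above 0, between 0.52 and 0.69 for Kcnj3 and between 0.34 and 0.44 for Kcnj5. Without the filter on low values neither call held (adjusted p = 0.108 for Kcnj3 and 0.0912 for Kcnj5). Neither held with a replicate block (limma adjusted p = 0.0614 for Kcnj3 and 0.0688 for Kcnj5).

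Atrial markers are given beside this pair because GIRK channels are typical of atrial muscle. Of 8 atrial markers tested 1 rose and 0 fell, while 2.37% of all genes tested were called either way. An unadjusted p under 0.05 was found for 3 of the 8, against 16.1% of all genes tested. The groups did not overlap for 3 of the 8, against 21.4% of all genes tested. Limma voom on the recovered reads called 2 of the 8 higher, and 546 of 14143 genes in all. The gene that rose was Dkk3, which encodes a secreted protein of the Dickkopf family, with 22.0, 25.2 and 30.4 FPKM in LSD1-CKO and 13.8, 16.1 and 14.1 FPKM in control libraries (limma adjusted p = 0.0195). The other two at an unadjusted p under 0.05 were not called, although their groups did not overlap: Nr2f2, a nuclear receptor gene, had 4.19 to 4.76 FPKM in LSD1-CKO and 3.24 to 3.59 FPKM in control libraries (limma adjusted p = 0.102), and Sln, which encodes sarcolipin, had 4.73 to 6.16 FPKM in LSD1-CKO and 6.58 to 9.47 FPKM in control libraries (limma adjusted p = 0.187). The summed level of the atrial list was 2606 to 2864 FPKM in LSD1-CKO and 2591 to 3346 FPKM in control libraries, with none at 0. Most of this sum was the myosin light chain genes Myl7, averaging 2088 FPKM in LSD1-CKO and 2225 FPKM in control libraries, and Myl4, averaging 618 FPKM in LSD1-CKO and 640 FPKM in control libraries. Of the sinoatrial node markers 0 of 4 tested were called by limma or by voom, against 2.37% of all genes tested in limma. An unadjusted p under 0.05 was found for 1 of the 4, against 16.1% of all genes tested. All 4 had a log2 change above 0, as had 6499 of 14149 genes tested, 8 of 9 endothelial and 5 of 5 epicardial markers. The sinoatrial list summed to 22.0 to 24.4 FPKM in LSD1-CKO and 20.4 to 22.5 FPKM in control libraries. Most of this was Tbx18, also listed as an epicardial marker, averaging 14.6 FPKM in LSD1-CKO and 14.4 FPKM in control libraries. Isl1, under the minimum for testing, went the other way, with 0.238, 0.143 and 0.410 FPKM (11 to 29 reads) in LSD1-CKO libraries. It had 0.452, 0.653 and 0.811 FPKM (33 to 62 reads) in control libraries, with no overlap. The part of either cell type in the Kcnj3 and Kcnj5 values was not tested, and in bulk tissue a different number of cells of a type and a different amount of RNA per cell cannot be told apart.

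Upstream of the GIRK channel, 21 genes of receptors, G protein subunits and regulators of G protein signalling were listed and 19 tested. Limma called 0 of the 19 either way, against 2.37% of all genes tested. The median log2 change of the 19 was 0.013. An unadjusted p under 0.05 was found for 5 of the 19, against 16.1% of all genes tested. The groups did not overlap for 7 of the 19, against 21.4% of all genes tested. Limma voom on recovered reads called 2 of them higher and 1 lower, and 546 higher and 70 lower of 14143 genes in all. Chrm2, the muscarinic receptor of the heart, averaged 1.34 FPKM in LSD1-CKO and 0.946 FPKM in control libraries (adjusted p = 0.423). The smallest p-values belonged to RGS genes, whose proteins speed the shut-off of G protein signals. Rgs5 averaged 0.935 ± 0.296 FPKM in LSD1-CKO and 1.96 ± 0.384 FPKM in control libraries (adjusted p = 0.0854), and Rgs2 averaged 5.59 ± 0.521 FPKM in LSD1-CKO and 6.84 ± 0.167 FPKM in control libraries (adjusted p = 0.167; SD, n = 3 each). Rgs3 was at 11.4 ± 1.14 FPKM in LSD1-CKO and 8.76 ± 1.08 FPKM in control libraries (adjusted p = 0.149). Rgs7bp, which encodes a membrane anchor of RGS proteins, was at 2.35 ± 0.218 FPKM in LSD1-CKO and 1.67 ± 0.267 FPKM in control libraries (adjusted p = 0.172; SD, n = 3 each).

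Among the ATP-sensitive channel genes the Kcnj8 pore fell. Kcnj8, which encodes Kir6.1, had 1.95, 1.76 and 2.15 FPKM in the LSD1-CKO libraries, against 3.21, 3.68 and 3.80 FPKM in the control libraries. Each LSD1-CKO library lay below each control library. The mean was 1.96 ± 0.197 FPKM in LSD1-CKO and 3.57 ± 0.313 FPKM in control ventricles (SD, n = 3 each), the first being 0.549 of the second (limma log2 change -0.63, SE 0.09, adjusted p = 0.0147), from 87 to 187 reads per library. The gene (ENSMUSG00000030247; chromosome 6, 142564837 to 142571614, minus strand) shares no exon base with another gene. The call was lost without LSD1-CKO replicate 1 (adjusted p = 0.0574), without LSD1-CKO replicate 2 (0.0664) and without control replicate 2 (0.0618), and held in the other 3 fits that left out a library (0.0329 to 0.0396). Without the filter on low values the adjusted p was 0.0658.

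**Figure D2:**
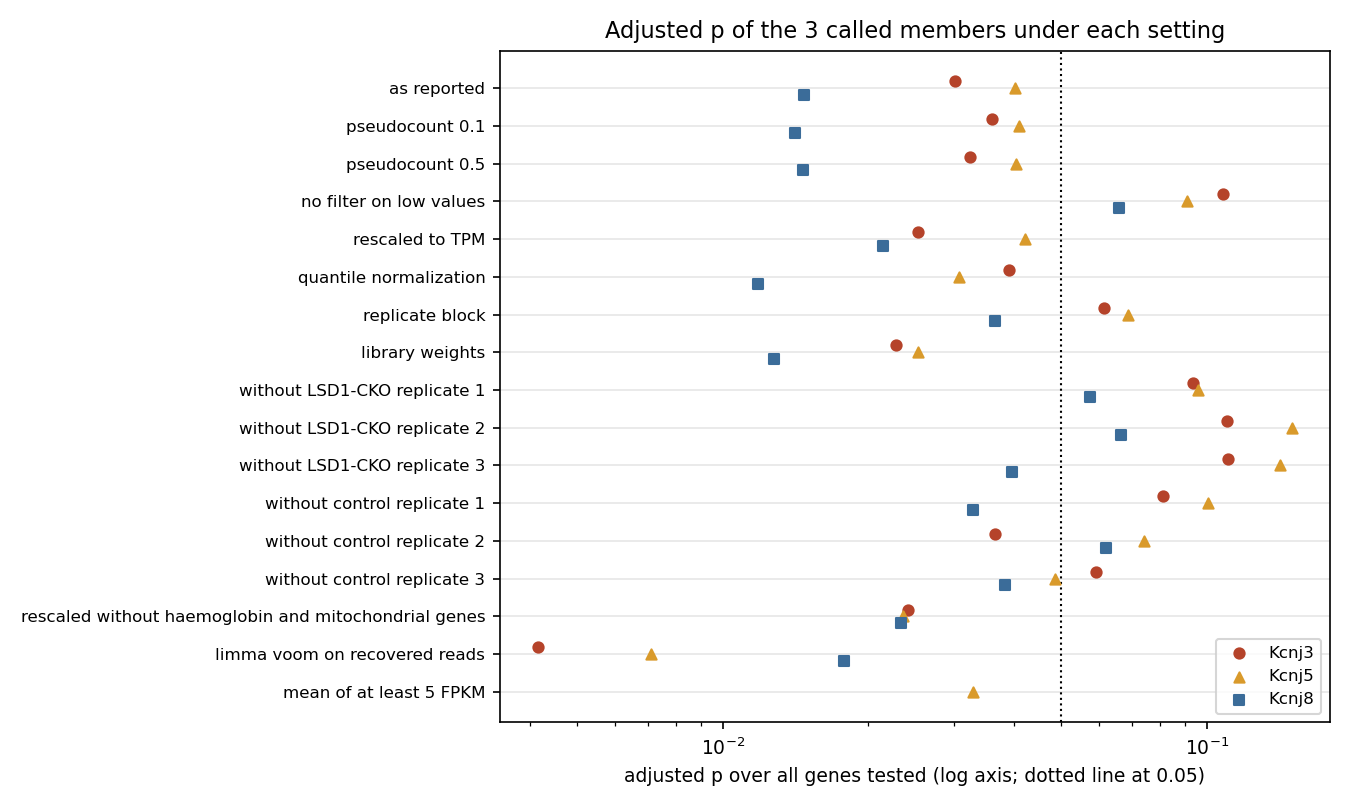
Adjusted p over all genes tested (horizontal log axis, dotted line at 0.05) of Kcnj3 (circles), Kcnj5 (triangles) and Kcnj8 (squares) as reported and under each alternative processing and each left-out library. Kcnj8 lies right of the line in 4 settings, the unfiltered fit and 3 with a library left out, and Kcnj3 and Kcnj8 have no point where a minimum of 5 FPKM removes them.

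The second pore gene, Kcnj11, which encodes Kir6.2, did not pass the test. It had 4.33, 4.79 and 4.96 FPKM in the LSD1-CKO libraries, against 3.68, 4.75 and 4.41 FPKM in the control libraries, and the groups overlapped. The log2 change was 0.11, with a 95% interval of -0.11 to 0.33 (limma adjusted p = 0.613). The ratio between the pore genes stood apart in the groups. Kcnj8 amounted to 0.451, 0.367 and 0.434 of the Kcnj11 level in the LSD1-CKO libraries and to 0.872, 0.775 and 0.862 in the control libraries. Kcnj8 made up 26.9% to 31.1% of the summed FPKM of both pore genes in LSD1-CKO libraries, and 43.7% to 46.6% in control libraries. The log2 difference of this ratio was -1.01 and the groups did not overlap (exact permutation test, two-sided, p = 0.1, adjusted p = 0.2 over 6 ratios).

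Neither receptor partner passed the test, although both stood above control on average. Abcc9, which encodes SUR2, had 5.32, 6.35 and 6.04 FPKM in the LSD1-CKO libraries, against 3.43, 5.56 and 3.71 FPKM in the control libraries. Control replicate 2 lay inside the LSD1-CKO range and the other controls below it. The log2 change was 0.42 with a 95% interval of 0.074 to 0.76 before adjustment over all genes (limma adjusted p = 0.224), and without control replicate 2 Abcc9 was called higher (log2 change 0.59, adjusted p = 0.0447). Abcc8, which encodes SUR1, was the least abundant member, with 0.773, 0.694 and 0.692 FPKM in the LSD1-CKO libraries, against 0.455, 0.438 and 0.327 FPKM in the control libraries. The groups did not overlap, but the log2 change of 0.29 was not called (SE 0.10, limma adjusted p = 0.219). Abcc8 had 51 to 113 reads per library, and the pseudocount of 1 FPKM compresses its change: the ratio of means was 1.77. It was called higher by limma voom on recovered reads (adjusted p = 0.0278). Because Abcc8 is also known from neurons, the 6 neuronal markers are given beside it: only Tubb3 reached the minimum for testing, and the sums were 2.81 to 4.06 FPKM in LSD1-CKO and 2.41 to 3.83 FPKM in control libraries, most of it from Tubb3. Elavl3, a neuronal marker under that minimum, had 0.169, 0.299 and 0.366 FPKM (21 to 45 reads) in LSD1-CKO libraries, against 0.0550, 0.131 and 0.120 FPKM (7 to 16 reads) in control libraries, with no overlap. Their part in the Abcc8 value was not tested. Abcc9 exceeded Abcc8 by 6.88 to 9.15 times in LSD1-CKO and by 7.53 to 12.7 times in control libraries, and these ranges overlapped (exact permutation p = 0.3, adjusted p = 0.45).

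Kcnj8 and Abcc9 are neighbours on chromosome 6, 16.2 kb apart, and Kcnj11 and Abcc8 are neighbours on chromosome 7, 3.76 kb apart, so each pore gene lies next to a receptor gene. Kcnj8 stood at 0.367, 0.277 and 0.357 of the Abcc9 level in the LSD1-CKO libraries, against 0.936, 0.663 and 1.02 in the control libraries. No LSD1-CKO value reached a control value, and the log2 difference of -1.38 was the largest of the 6 ratios computed (exact permutation test, two-sided, p = 0.1, adjusted p = 0.2). Ldhb, the protein-coding gene on the other side of Kcnj8, averaged 365 FPKM in LSD1-CKO and 400 FPKM in control libraries (limma adjusted p = 0.529). Of the nearest protein-coding genes on each side of the 10 members, Kcnj8 itself, as the neighbour of Abcc9, was the only one called. Kcnj16, Galnt13, Kcnj1 and Ush1c were under the minimum and not tested. Galnt13 is a neighbour of Kcnj3, and Kcnj1 of Kcnj5. With 2.37% of all genes tested called, so short a list cannot tell whether neighbours were called less often than other genes.

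**Figure D3:**
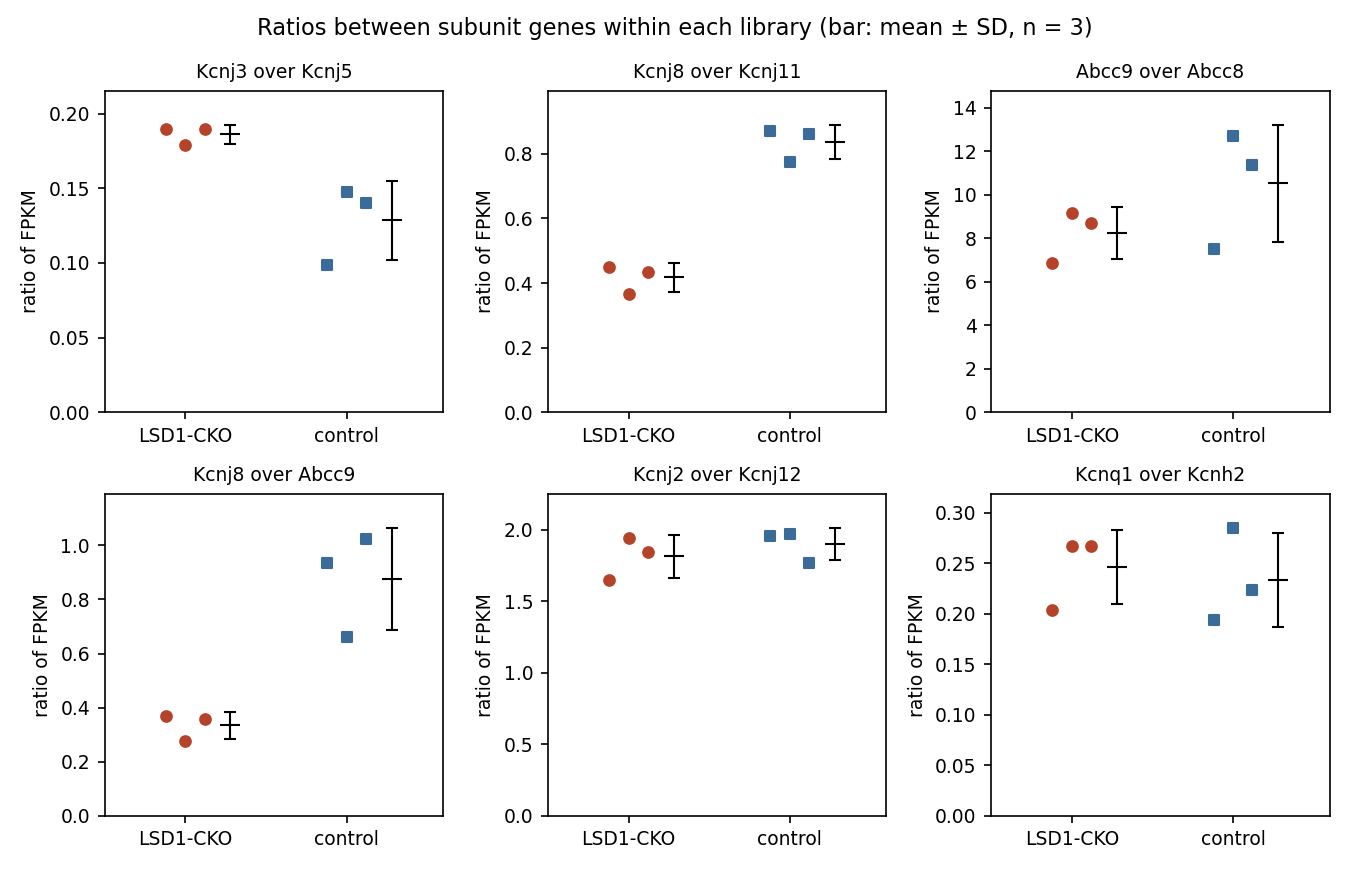
Ratio of FPKM between subunit genes in each library (vertical axes, each from 0), for the 3 LSD1-CKO libraries (circles, left) and the 3 control libraries (squares, right), with mean ± SD. Kcnj3 over Kcnj5, Kcnj8 over Kcnj11 and Kcnj8 over Abcc9 do not overlap between groups, and the other 3 ratios do.

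Because Kcnj8 and Abcc9 mark pericytes and vascular smooth muscle, markers of these cells are given beside them. Of 12 such markers, 9 reached the minimum for testing and 0 were called either way by limma, against 2.37% of all genes tested. An unadjusted p under 0.05 was found for 1 of the 9, against 16.1%, and voom called 1 lower, in both cases Rgs5. The groups did not overlap for 3 of the 9, against 21.4%: Rgs5 and Cspg4 were lower in LSD1-CKO and Tagln higher. Cspg4 had 0.886 to 1.0452 FPKM in LSD1-CKO and 1.0457 to 1.24 FPKM in control libraries. Tagln had 1.69 to 1.98 FPKM in LSD1-CKO and 1.39 to 1.67 FPKM in control libraries. The 12 markers summed to 1130 to 1305 FPKM in LSD1-CKO and 920 to 1478 FPKM in control libraries. Most of this sum came from Acta2 and Cnn1, which embryonic heart muscle also expresses. Vtn was listed at 0 in 5 libraries and Higd1b in 5, and Myh11 stood at or below 0.233 FPKM in each library. The pericyte receptor gene Pdgfrb had 4.52 to 5.69 FPKM in LSD1-CKO and 4.15 to 5.17 FPKM in control libraries, while the pericyte gene Rgs5 had 0.612 to 1.19 FPKM in LSD1-CKO and 1.66 to 2.39 FPKM in control libraries, with no overlap but no limma call. Endothelial markers had 0 of 9 called by limma or voom, against 2.37% of all genes tested in limma. Of the 9, 1 had an unadjusted p under 0.05, against 16.1% of all genes tested. A log2 change above 0 was found for 8 of the 9, with a median of 0.17, against -0.015 for all genes tested. The endothelial sums were 165 to 203 FPKM in LSD1-CKO and 144 to 199 FPKM in control libraries. Whether a different share of mural cells took part in the Kcnj8 value was not tested.

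The strong inward rectifiers did not pass the test. Kcnj2, which encodes Kir2.1, had 2.29, 2.11 and 2.41 FPKM in the LSD1-CKO libraries, against 2.58, 3.14 and 2.86 FPKM in the control libraries. Each LSD1-CKO value lay below each control value, yet the log2 change of -0.24 (SE 0.09, 95% interval -0.44 to -0.038 before adjustment) had a limma adjusted p of 0.238. Kcnj12, which encodes Kir2.2, had 1.39, 1.09 and 1.30 FPKM in the LSD1-CKO libraries, against 1.32, 1.59 and 1.62 FPKM in the control libraries. These groups overlapped (log2 change -0.15, 95% interval -0.38 to 0.077, limma adjusted p = 0.495). Kcnj2 exceeded Kcnj12 by 1.65 to 1.94 times in LSD1-CKO and by 1.77 to 1.97 times in control libraries, with overlapping ranges (exact permutation p = 0.5, adjusted p = 0.6).

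The delayed rectifier genes did not pass the test either. Kcnh2, which encodes the ERG pore, was the most abundant member, with 14.1, 14.9 and 14.4 FPKM in the LSD1-CKO libraries, against 17.9, 19.4 and 14.6 FPKM in the control libraries. Control replicate 3 lay within the LSD1-CKO range and the other controls above it. The log2 change was -0.23 (SE 0.10, limma adjusted p = 0.309). Kcnq1 had 2.88, 3.99 and 3.84 FPKM in the LSD1-CKO libraries, against 3.47, 5.52 and 3.27 FPKM in the control libraries. Its groups overlapped, and its 95% interval was the widest of the 10, -0.54 to 0.27 around a log2 change of -0.14 (adjusted p = 0.757). Without control replicate 2 the Kcnq1 change turned to 0.058 (adjusted p = 0.902). The imprinted antisense RNA Kcnq1ot1 covers 2.96% of the Kcnq1 exon bases and was listed at 0.0277 to 0.0361 FPKM in LSD1-CKO and 0.0157 to 0.0317 FPKM in control libraries. Kcnq1 stood at 0.246 ± 0.0366 of the Kcnh2 level in LSD1-CKO and at 0.234 ± 0.0464 in control libraries (SD, n = 3 each; exact permutation p = 0.9).

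**Figure D4:**
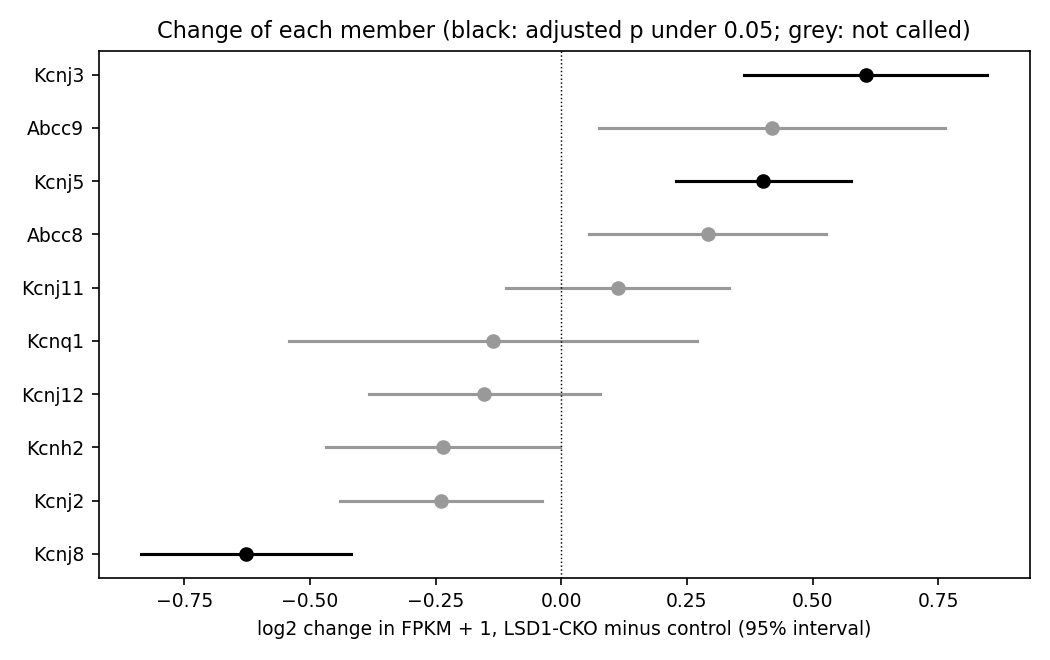
Log2 change in FPKM + 1 (horizontal axis, LSD1-CKO minus control) of each of the 10 genes, with its 95% interval from limma before adjustment over all genes. Kcnj3 and Kcnj5 (black, right of 0) and Kcnj8 (black, left of 0) had an adjusted p under 0.05, and the 7 grey genes did not.

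The order of the levels was similar in both groups at its ends and differed in the middle. Per length, Kcnh2 and then Kcnj5 were the most abundant members and Abcc8 the least in both groups. In LSD1-CKO libraries the order between was Abcc9, Kcnj11, Kcnq1, Kcnj2, Kcnj3, Kcnj8 and Kcnj12, where 1 of 9 neighbouring pairs overlapped in FPKM, Kcnj2 with Kcnj3. In control libraries it was Kcnj11, Abcc9, Kcnq1, Kcnj8, Kcnj2, Kcnj12 and Kcnj3, where 4 of 9 neighbouring pairs overlapped: Kcnj11 with Abcc9, Abcc9 with Kcnq1, Kcnq1 with Kcnj8, and Kcnj12 with Kcnj3. Kcnj8 ranked eighth in LSD1-CKO and sixth in control libraries, and Kcnj3 seventh in LSD1-CKO and ninth in control libraries. The Kcnh2 mean exceeded that of 76.2% of the genes tested and the Abcc8 mean that of 1.86%.

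Of 65 other listed potassium channel subunits, 64 were matched by symbol and 21 reached the minimum for testing. Of these 21, 1 rose and 0 fell, while 2.37% of all genes tested were called either way. Their median log2 change was -0.0032. An unadjusted p under 0.05 was found for 6 of the 21, against 16.1% of all genes tested. The gene that rose was Kcna7, a voltage-gated channel subunit, at 1.45, 1.84 and 1.59 FPKM in the LSD1-CKO libraries, against 0.621, 0.515 and 0.451 FPKM in the control libraries. Its means of 1.63 ± 0.201 FPKM in LSD1-CKO and 0.529 ± 0.0857 FPKM in control libraries (SD, n = 3 each) differed 3.07-fold (limma log2 change 0.78, SE 0.10, adjusted p = 0.0112), a larger ratio than for any of the 10 members. Kcna7 had 57 to 78 reads per LSD1-CKO library and only 19 to 25 per control library, while each member had 51 or more. Without LSD1-CKO replicate 2 the Kcna7 adjusted p was 0.0531.

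The next smallest p-values in that list did not pass the threshold. Kcne3, an accessory subunit, averaged 4.13 ± 0.282 FPKM in LSD1-CKO and 7.28 ± 1.70 FPKM in control libraries (limma adjusted p = 0.0726). Kcnj4, a strong inward rectifier related to Kcnj2, averaged 2.79 ± 0.613 FPKM in LSD1-CKO and 1.18 ± 0.480 FPKM in control libraries (adjusted p = 0.0812). The background channel gene Kcnk1 averaged 1.96 ± 0.405 FPKM in LSD1-CKO and 1.03 ± 0.315 FPKM in control libraries (adjusted p = 0.122; SD, n = 3 each). The groups did not overlap for any of these 3 genes, as for 7 of the 21 tested, against 21.4% of all genes tested. Kcne1, the accessory subunit of Kcnq1 in the slow delayed rectifier, was picked after its values were seen: it had 21.8, 22.4 and 22.5 FPKM in LSD1-CKO and 17.5, 20.8 and 17.6 FPKM in control libraries, and was not called (log2 change 0.25, SE 0.08, adjusted p = 0.181).

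**Figure D5:**
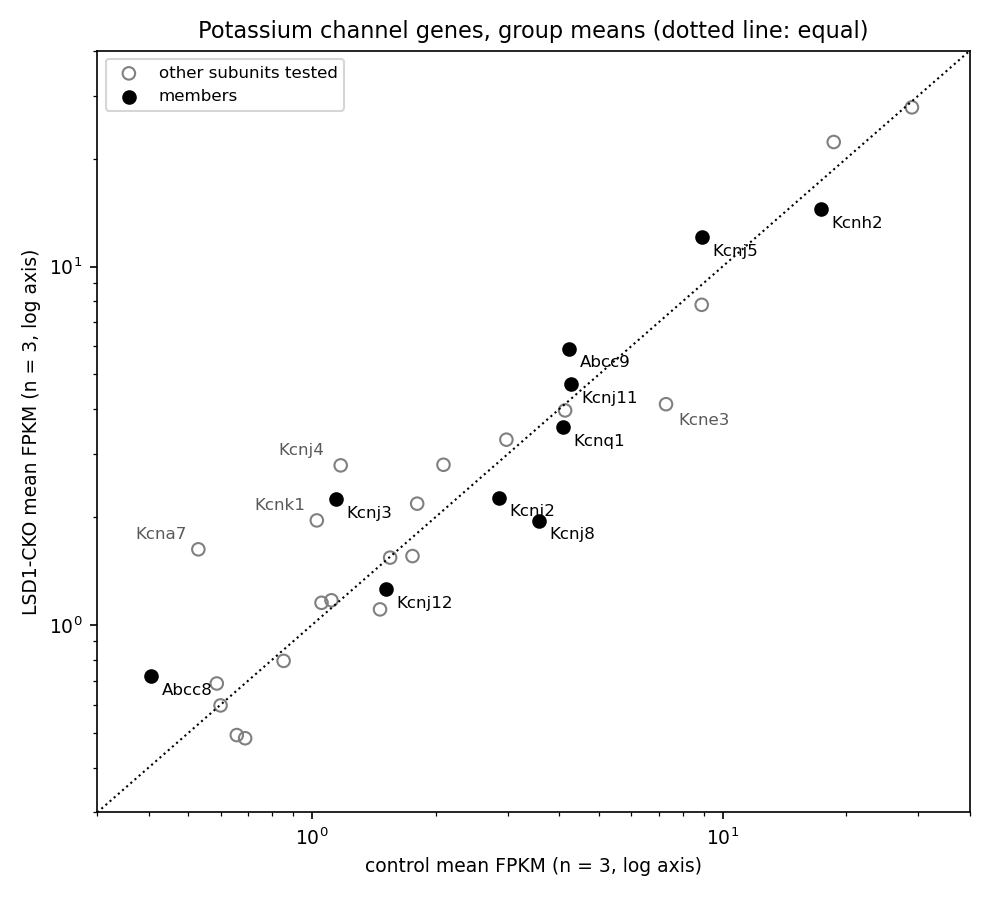
Mean FPKM in LSD1-CKO (vertical log axis) against control (horizontal log axis) for the 10 members (filled, named) and the 21 other potassium channel subunits tested (open, 4 named), n = 3 each; the dotted line marks equal means. Kcna7, Kcnj4, Kcnk1 and Kcnj3 lie above the line, and Kcnj8 and Kcne3 below it.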

How the data were processed

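RNA from E12.5 heart ventricles was measured in 3 LSD1-CKO and 3 control libraries, grouped by the sample descriptions. Per the labels' protocols, TRIzol RNA went into NEBNext Ultra libraries, a kit that keeps no strand. Among the tools in the submitters' processing notes are HISAT2 2.0.5 and featureCounts 1.5.0-p3, with mm10 as genome; how reads were counted, and on which annotation, is not given in the sources used here. Values in FPKM, with no pooling of replicates, were deposited by the authors for 54532 gene IDs, of which GENCODE M21 held 54495. A symbol shared by several IDs went to the ID with the highest mean. FPKM times exon length gave whole reads within 0.02 for 98.1% to 98.5% of values under 30 reads; their sums give the depth.

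Genes averaging 0.5 FPKM or more were fitted by limma 3.58.1 (R 4.3.3) on log2(FPKM + 1) values (mean-variance trend, genotype only, two-sided, Benjamini-Hochberg). Changes on that scale understate those of low genes. The procedure was tested on simulated data. Ratios between subunits were compared by exact permutation tests. Every member was named; of the lists of other channel subunits and GIRK input genes, called genes were named and, with fewer than 4 called, those with the smallest p up to 4. Chrm2, Kcne1, Nr2f2, Sln, Myl7, Myl4, Elavl3, Isl1, Tbx18 and the levels of single cardiomyocyte markers were added after they were seen. Lists, motifs and the promoters shown were chosen with earlier results of these data known. Alternatives covered pseudocount, filter, scaling, library weights, a replicate block, voom on recovered reads and leaving out each library. Median chi-square per gene between libraries was 1.73 or above, against 0.455 for sampling noise, so none was counted as a copy. Python 3.11.15, pandas 2.3.3 and matplotlib 3.10.9 were used.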

Additional observations from a re-analysis of the deposited data

How the results depend on the processing

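With 3 libraries a group and adjusted p-values of 0.0147 to 0.0402, the 3 calls among the members sat close to the threshold, while their direction held in every alternative run. The count of members called higher, 2, and lower, 1, became 0 and 0 without the filter on low values (adjusted p = 0.108 for Kcnj3, 0.0912 for Kcnj5 and 0.0658 for Kcnj8, with 25956 genes tested). It became 1 and 0 with a 5 FPKM minimum, where 3 of the 10 members remain in the test. Leaving out a library gave 0 to 2 members higher and 0 to 1 lower. Limma voom on recovered reads, chosen after seeing the data, called Kcnj3, Kcnj5 and Abcc8 higher and Kcnj8 lower. Whether the shared replicate numbers pair the samples was not settled. The correlations of deviations between same-numbered libraries were -0.0021, 0.14 and 0.164, and those between other pairs ran from -0.189 to 0.0798. Not every library correlated best with its own number. With a replicate block 0 members were called higher (adjusted p = 0.0614 for Kcnj3 and 0.0688 for Kcnj5), 1 lower (0.0366 for Kcnj8), and 220 genes higher and 64 lower in all.

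Over all genes, 270 were higher and 66 lower, and these counts were 110 and 12 without the filter, 132 higher with a 5 FPKM minimum, 40 lower after rescaling to TPM, 112 lower with library weights and 546 higher with voom. Leaving out a library gave 111 to 273 higher and 23 to 108 lower. The share of calls that were higher was 80.4%, and 90.3% after rescaling to TPM, 89.0% after rescaling without haemoglobin and mitochondrial genes and 88.6% with voom. Of the other channel subunits 0 were called higher with a 5 FPKM minimum, 2 with voom (Kcna7 and Kcnj4), 1 lower with library weights (Kcne3), and 0 to 1 higher and 0 to 1 lower with a library left out. Of the GIRK input genes 2 were called higher and 1 lower with voom (Rgs3 and Rgs7bp, Rgs5), and 1 lower with the block (Rgs5). With a library left out, the log2 change of Kcnq1 ran from -0.25 to 0.058, turning positive without control replicate 2. The log2 difference of the Kcnq1 over Kcnh2 ratio ran likewise from -0.045 (without control replicate 1) to 0.23. Causes were not tested. The count tests of edgeR and DESeq2 were not run, since the deposited values are FPKM. The lowest members, Abcc8 and Kcnj12, rest on 51 to 113 and 58 to 86 reads per library.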
